A study of Homo sapiens with 12 samples.

Results

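The genes described here encode the elastic fibre and the fibrillin microfibrils that carry it. There are 10 of them among the 58051 genes of the count tables, namely ELN, FBN1, FBN2, FBLN1, FBLN2, FBLN5, EFEMP1, EFEMP2, LTBP1 and MFAP2, and each was found by its symbol, which belonged to a single gene identifier in every case. RNA-seq was performed on 12 libraries from ACHN, A-498 and 786-O, established lines of human kidney cancer labelled as clear cell renal cell carcinoma. Cells of 786-O received either the miR-29 mimic, an RNA made to act as the miRNA, or a control mimic, with 1 library each. The same pair of reagents was used in A-498, with 2 libraries each, while ACHN had 3 libraries given a miR-29 inhibitor, which blocks the miRNA, and 3 given a control inhibitor. All cells were given 10 nM of reagent and RNA was extracted after 48 h. The lines are grown without the fibroblasts and smooth muscle cells that lay down most elastic fibre in tissue, so the levels are those of cancer cells in culture.

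Elastic fibres give skin, lung and vessel walls their recoil. Elastin is secreted as the soluble monomer tropoelastin, is gathered by fibulins onto a scaffold of fibrillin microfibrils and is then crosslinked by lysyl oxidases, while the same microfibrils hold latent TGF-β through its binding proteins. The miR-29 family is known for lowering transcripts of the extracellular matrix, among them collagens, elastin and fibrillin-1, by pairing of its seed with their 3′ UTRs.

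The mature miRNAs are shown because the search for matches rests on their seed, which all family members share. Nucleotides 2 to 8, the seed, are in capitals (RefSeq, GRCh38.p14).

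hsa-miR-29a-3p: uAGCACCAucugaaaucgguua

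hsa-miR-29b-3p: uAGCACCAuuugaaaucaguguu

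hsa-miR-29c-3p: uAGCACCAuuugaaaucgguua

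The search looked for TGGTGCT on the transcript strand, the exact complement of the seed, called a 7mer-m8, or an 8mer when an A follows (TGGTGCTA). In the longest annotated 3′ UTR, 3 of the 10 genes had such a match, ELN, EFEMP1 and MFAP2, against 15% of 19248 protein-coding genes. For FBN1 the longest annotated 3′ UTR (3613 nt) belongs to an isoform that ends near the 5′ end of the gene. After the values of FBN1 had been seen, the Ensembl canonical isoform, with a 3′ UTR of 2677 nt, was therefore searched as well. In canonical isoforms 4 of the 10 genes had a match, the same 3 and FBN1, against 14.0% of 19228 genes. Windows of 30 bases at the matches are printed 5′ to 3′ on the transcript strand (GRCh38), with the match in capitals.

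ELN, 38 nt from the stop codon, chr7:74068716-74068745, plus strand: tgactcacgacctcatcaacgtTGGTGCTA

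ELN, 297 nt, chr7:74068975-74069004, plus strand: agcctccatctccaggggaactTGGTGCTA

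FBN1, canonical isoform, 416 nt, chr15:48410567-48410596, minus strand: ttgtccatttatggtacctattTGGTGCTA

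FBN1, canonical isoform, 671 nt, chr15:48410312-48410341, minus strand: cccttaatgtgagggtttgtaaTGGTGCTt

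EFEMP1, 314 nt, chr2:55866752-55866781, minus strand: accaagcaatgatgatcttctgTGGTGCTt

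MFAP2, 65 nt, chr1:16974848-16974877, minus strand: ggccctcgggccctgcctgaccTGGTGCTt

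ELN had a further match at 310 nt and MFAP2 another at 3 nt. The remaining 6 genes had no match to nucleotides 2 to 8 in either isoform, and FBN2 had only a match of 6 bases, 500 nt from the stop codon. A match is a description of the sequence, and whether miR-29 binds there was not measured.

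**Figure D1:**
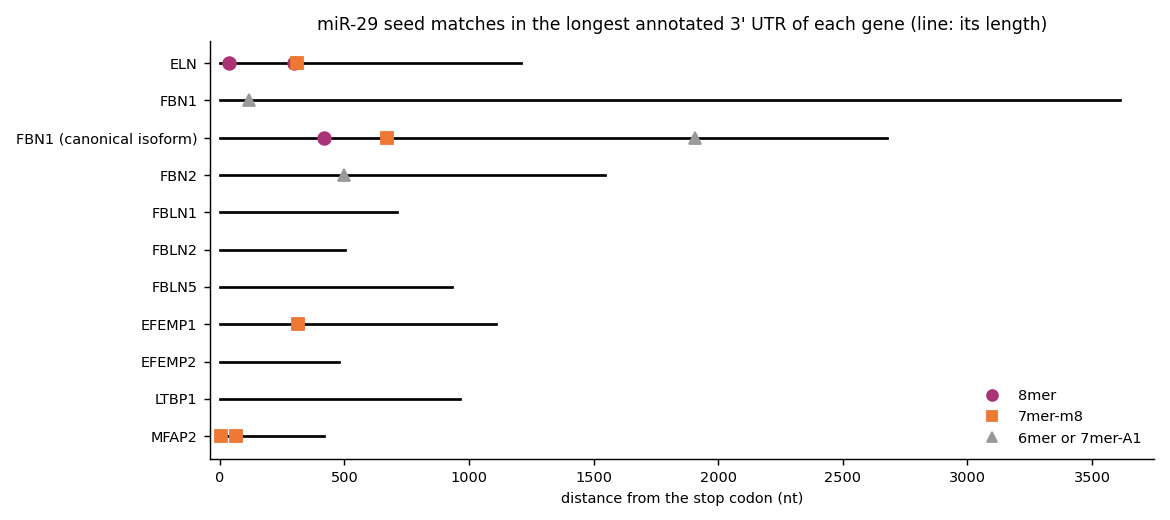
Matches to the miR-29 seed in the longest annotated 3′ UTR of each gene, with the canonical isoform of FBN1 as an added line. The horizontal axis is the distance from the stop codon in nt, and each line is as long as its 3′ UTR; the matches of ELN at 297 and 310 nt lie almost on each other, and 5 of the 10 genes have no symbol at all.

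The libraries held 39919554 to 70027392 reads in genes. Reads not assigned to a single gene made up 37.2% to 48.0% of each library. Of 10 well-known miR-29 targets, 9 were tested in each replicated line, and all 9 were lower with the mimic in A-498 and higher with the inhibitor in ACHN. In 786-O, 9 were over the read minimum and all 9 were lower in the mimic library. The renal lineage gene PAX8 was read in every line, at 71.4 ± 4.77 CPM (SD, n = 2) in control A-498 and 174 ± 5.53 CPM (SD, n = 3) in control ACHN. The 786-O control library had it at 524 CPM. CA9, the carbonic anhydrase that marks clear cell carcinoma, was near 0 in 786-O (2 reads in the control and 14 in the mimic library) and in control ACHN (4 to 7 reads). In A-498 CA9 was at 7.16 and 7.07 CPM in the controls and 10.9 and 10.5 CPM with the mimic. None of 4 endothelial and 4 leukocyte markers reached 1 CPM in any library.

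Levels between genes are compared per length, as RPKM (reads scaled to exon length and library size), in the control libraries. In 786-O the order was led by EFEMP2, a fibulin needed for elastin crosslinking, at 5.61 RPKM. It was followed by EFEMP1 (2.97), FBN1 (1.89) and FBLN1 (1.35 RPKM), the last pair in the other order with the longest transcript as length (3.01 and 3.38), with FBN2, LTBP1, MFAP2, ELN, FBLN2 and FBLN5 at 0.112 RPKM or less. The single 786-O library gives no spread for this order.

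In A-498 the order was led by the fibulins EFEMP1 at 15.6 ± 0.777 RPKM (SD, n = 2) and FBLN1 at 14.1 ± 0.450 RPKM (SD, n = 2). Their order turned when the longest transcript was taken as the length, at 20.4 and 35.3 RPKM. LTBP1, which tethers latent TGF-β to the matrix, followed at 4.33 ± 0.112 RPKM (SD, n = 2), ahead of FBN1 at 0.812 ± 0.0280 RPKM (SD, n = 2) and EFEMP2 at 0.188 ± 0.0172 RPKM (SD, n = 2). The other members were under 0.04 RPKM there, where ELN and FBN2 did not differ beyond their spread. MFAP2 had 0 reads in all 4 A-498 libraries.

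In ACHN the order was led by EFEMP2 at 9.33 ± 0.515 RPKM (SD, n = 3), ahead of FBN1 at 2.08 ± 0.0342 RPKM (SD, n = 3). FBLN5, a fibulin that binds tropoelastin, came after it at 0.769 ± 0.0711 RPKM (SD, n = 3). FBLN1 at 0.516, MFAP2 at 0.279 and EFEMP1 at 0.146 RPKM came next, with LTBP1 and ELN both near 0.042 RPKM and not apart beyond their spread. FBN2 and FBLN2 were under 0.01 RPKM, and FBLN2 had no read in 1 control library.

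**Figure D2:**
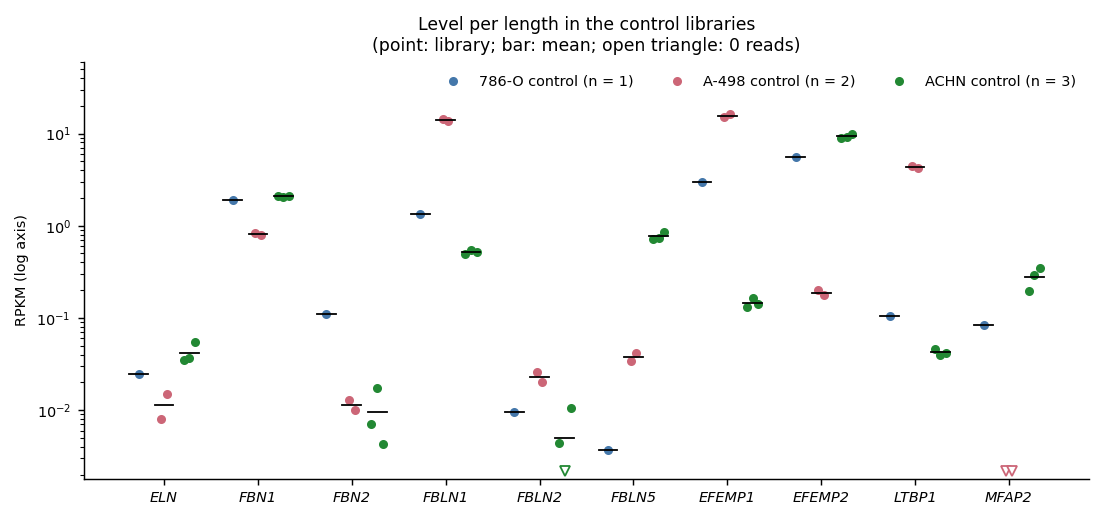
RPKM of each gene in the control libraries, on a log axis, with a point for each library, a bar at the mean and an open triangle for a library with 0 reads. EFEMP1, FBLN1 and LTBP1 were highest in A-498, whereas EFEMP2, FBLN5 and MFAP2 were highest in ACHN.

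The control libraries were also compared gene by gene between A-498 and ACHN, with the caveat that the control reagent differed, so line and reagent cannot be told apart. Of the 9 genes tested (FBLN2 had too few reads), 3 were higher and 5 lower in A-498 at an adjusted p under 0.05 in edgeR. Over all genes tested 41% were higher and 38.7% lower. ELN and MFAP2, among the 5, passed the read filter through the ACHN libraries alone. They could only come out lower or not pass, so they are not read against these shares. EFEMP1 was 109.8-fold higher in A-498 (log2 fold change 6.78, SE 0.0903, edgeR adjusted p = 8.15e-23). LTBP1 was 104.2-fold higher (log2 fold change 6.70, SE 0.106, edgeR adjusted p = 8.16e-22), and FBLN1 was 28.1-fold higher (log2 fold change 4.81, SE 0.0678, edgeR adjusted p = 1.83e-22).

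In the other direction, EFEMP2 was 48.3-fold lower in A-498 than in ACHN (log2 fold change -5.59, SE 0.0948, edgeR adjusted p = 2.78e-21). FBLN5 was 19.4-fold lower (log2 fold change -4.28, SE 0.209, edgeR adjusted p = 1.23e-13) and FBN1 2.49-fold lower (log2 fold change -1.31, SE 0.0583, edgeR adjusted p = 2.53e-14). ELN was 3.40-fold lower on 3 to 14 reads per library (log2 fold change -1.77, SE 0.511, edgeR adjusted p = 0.00326), a call that was lost without A-498 control replicate 1 (adjusted p = 0.0678) and in DESeq2 (adjusted p = 0.0580). MFAP2, a small glycoprotein of the microfibril, was at least 29.7-fold lower in A-498, taking 3 reads over both control libraries as the most that 0 reads allow. FBN2 did not pass (log2 fold change 0.29, 95% interval -0.77 to 1.35, edgeR adjusted p = 0.608). Control CPM values of the lines were fully apart for 8 of the 9 genes, as for 85.2% of all genes tested. ELN and MFAP2 are among these 8 and are not read against that share either.

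Adding miR-29 to A-498 lowered 3 of the 8 genes with enough reads for a test, FBN1, EFEMP1 and LTBP1, and raised FBN2 and EFEMP2 (edgeR, adjusted p under 0.05). Over all genes tested 27% were lower and 25.5% higher, so the members' shares lie close to the background in this line. With library size alone as the scaling, the split over all genes turned from 5313 lower and 5015 higher to 4352 lower and 6191 higher, and the members' split stayed at 3 and 2. CPM values of mimic and control were fully apart for 7 of the 8 genes, as for 74.4% of all genes tested. FBLN2, among these 7, passed the read filter through the mimic libraries alone, so it is not read against that share. ELN and MFAP2 had too few reads.

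Inhibiting miR-29 in ACHN raised 5 of the 8 genes tested, FBN1, EFEMP1, LTBP1, MFAP2 and EFEMP2, and lowered 0 (edgeR, adjusted p under 0.05). The background was 17.3% higher and 14.4% lower. CPM values of inhibitor and control were fully apart for these 5 genes, as for 43.2% of all genes tested. FBN2 and FBLN2 had too few reads. The median log2 fold change over the 8 genes was 0.51 in ACHN and -0.08 in A-498, beside medians over all genes tested of 0.0038 and 0.0045.

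In the single pair of 786-O libraries, 7 genes had at least 10 reads. FBN1, FBLN1 and MFAP2 were lower in the mimic library beyond counting error and none was higher, where 30.7% of all genes over the minimum were lower and 27.7% higher beyond counting error. MFAP2 reached the minimum through its 10 control reads alone, so it could only come out lower, and it is not read against that share. Counting error is the only error this pair can show, since there is no replicate.

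**Figure D3:**
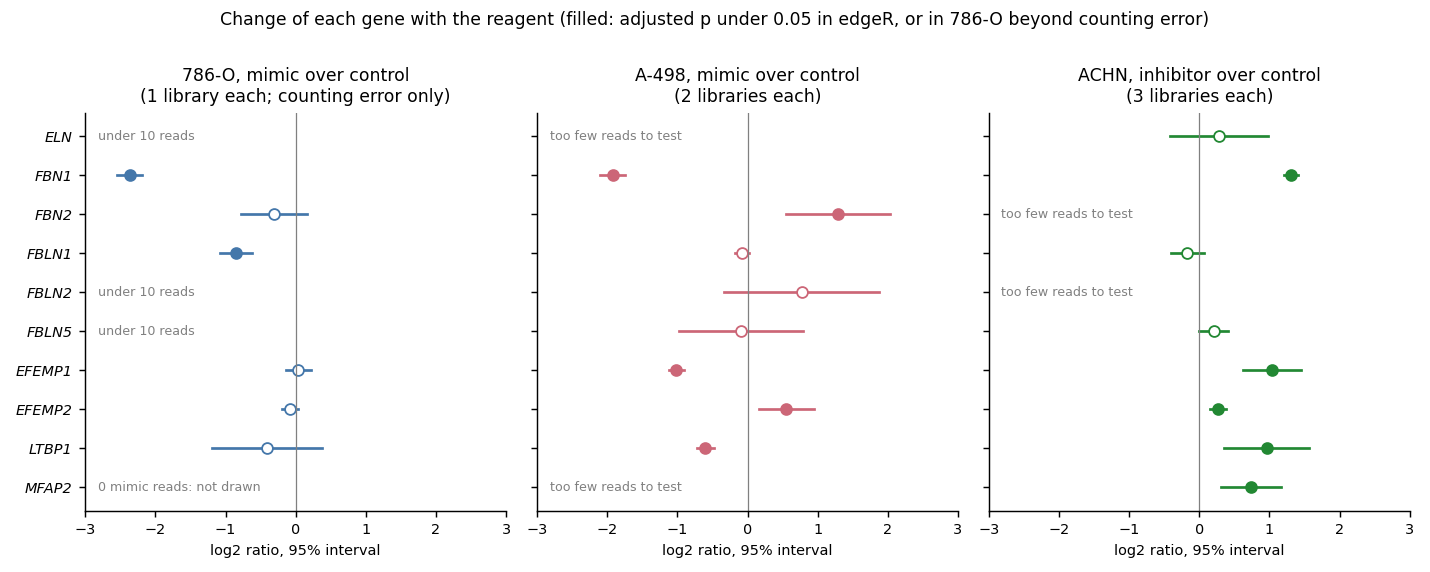
Log2 ratio of each gene between the miR-29 reagent and its control in 786-O, A-498 and ACHN, with 95% intervals, which cover counting error alone in 786-O; filled points passed the threshold of their line. FBN1 lies left of 0 with the mimic in 786-O and A-498 and right of 0 with the inhibitor in ACHN.

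Elastin itself, the core of the fibre, was barely read. ELN (ENSG00000049540, chromosome 7, 74027789 to 74069907, plus strand) had 7 reads in the 786-O control and 1 in the mimic library. It had 3 and 6 reads in the A-498 controls, and 4 and 6 with the mimic. In ACHN the controls had 11, 10 and 14 reads and the inhibitor libraries 26, 15 and 19, in deeper libraries. The CPM of the ACHN groups overlapped, and the log2 fold change was 0.28 (95% interval -0.42 to 0.98, edgeR adjusted p = 0.574). In 786-O the ratio of 7 to 1 reads was 7.09-fold, with a counting interval from 0.910 to 319, which includes no change. The interval in ACHN holds a fall as well as a rise, so these counts do not give ELN a direction. ELN had the most seed matches of the 10 genes, and whether miR-29 acts through them was not tested. Exons of ELN overlap those of the antisense gene ELN-AS1, and the counting used strand.

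FBN1 (ENSG00000166147, chromosome 15, 48408313 to 48645721, minus strand) encodes fibrillin-1, the main microfibril protein, and had the largest absolute log2 fold change of the members tested in A-498 and in ACHN. In 786-O it was at 34.9 CPM in the control and 6.85 CPM in the mimic library, a fold of 5.16 lower with a counting interval from 4.55 to 5.86. In A-498 it was at 15.4 and 14.7 CPM in the controls against 4.0 and 3.94 CPM with the mimic, and the groups lay far apart. The fall was 3.79-fold (log2 fold change -1.92, SE 0.0852, edgeR adjusted p = 2.36e-10).

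In ACHN FBN1 was at 39.0, 37.8 and 38.7 CPM in the controls and 90.3, 96.8 and 99.5 CPM with the inhibitor. Every inhibitor library was above every control. The rise was 2.47-fold (log2 fold change 1.31, SE 0.0473, edgeR adjusted p = 6.20e-13).

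FBN2 encodes fibrillin-2, the fibrillin of developing tissue. It had 13 and 11 reads in the A-498 controls and 34 and 29 with the mimic, with no overlap in CPM. The rise was 2.44-fold (log2 1.29, SE 0.344, edgeR adjusted p = 0.00577), against a fall of FBN1 in the same libraries, and it did not pass in DESeq2 (adjusted p = 0.0995). In 786-O FBN2 had 87 and 71 reads, within counting error (log2 ratio -0.31 without a prior count, interval -0.78 to 0.16). In ACHN it had 3 to 14 reads per library and was not tested.

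Among the fibulins, EFEMP1 (fibulin-3) changed most in the replicated lines. In A-498 it was at 59.6 and 64.0 CPM in the controls against 30.5 and 30.8 CPM with the mimic, a fall of 2.02-fold (log2 fold change -1.02, SE 0.0515, edgeR adjusted p = 9.51e-10). Both mimic libraries were well below both controls. In ACHN, where its level was about 1 CPM, it was at 0.526, 0.650 and 0.563 CPM in the controls and 1.13, 1.11 and 1.32 CPM with the inhibitor, without overlap. The rise was 2.05-fold on 22 to 89 reads per library (log2 fold change 1.03, SE 0.194, edgeR adjusted p = 0.000433). In 786-O EFEMP1 was at 11.8 CPM in the control and 12.2 CPM in the mimic library (log2 ratio 0.03, counting interval -0.14 to 0.21).

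EFEMP2 (fibulin-4) rose with both reagents, although one adds and the other blocks the miRNA. It was at 1.08 and 0.947 CPM in the A-498 controls and 1.5 and 1.47 CPM with the mimic, on 58 to 99 reads (log2 fold change 0.55, SE 0.181, edgeR adjusted p = 0.0191). This call was lost in DESeq2 (adjusted p = 0.198), without control replicate 3 (0.0977) and without mimic replicate 1 (0.0744). In ACHN it was at 47.9, 49.8 and 53.4 CPM in the controls and 57.9, 66.3 and 58.4 CPM with the inhibitor. All inhibitor libraries were above the controls, by 1.20-fold (log2 fold change 0.27, SE 0.0548, edgeR adjusted p = 0.000970). In 786-O it was at 30.3 and 29 CPM, within counting error. Exons of EFEMP2 overlap those of MUS81 on the opposite strand, which had up to 2193 reads, and the counting used strand.

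FBLN1 (fibulin-1) was at 105 and 100.1 CPM in the A-498 controls and 94.7 and 99.8 CPM with the mimic. The groups lay just apart, and the log2 fold change was -0.08 (95% interval -0.17 to 0.02, edgeR adjusted p = 0.164), although it passed without control replicate 3 (log2 fold change -0.13, adjusted p = 0.00777). In ACHN it was at 3.56, 3.95 and 3.79 CPM in the controls and 2.97, 3.66 and 3.43 CPM with the inhibitor, with overlap (log2 fold change -0.17, 95% interval -0.41 to 0.07, edgeR adjusted p = 0.276). In 786-O it went from 429 to 241 reads, 1.80-fold lower with a counting interval from 1.54 to 2.12.

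FBLN5 did not pass in A-498 or ACHN, and FBLN2 did not pass in A-498, the only line where it was tested. In the 786-O control and mimic libraries FBLN5 had 1 and 5 reads and FBLN2 had 2 and 4, under the minimum. FBLN5 was at 4.48, 4.64 and 5.32 CPM in the ACHN controls and 5.13, 5.96 and 5.58 CPM with the inhibitor, overlapping (log2 fold change 0.20, 95% interval -0.01 to 0.41, edgeR adjusted p = 0.134). In A-498 FBLN5 had 12 to 16 reads per library (log2 fold change -0.09, 95% interval -0.98 to 0.79, edgeR adjusted p = 0.874). FBLN2 had 14 reads at most in any library, and its log2 fold change in A-498 was 0.78 (95% interval -0.33 to 1.88, edgeR adjusted p = 0.221). These intervals leave room for changes larger than several of those called above.

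LTBP1 binds latent TGF-β and sits on fibrillin microfibrils. In A-498 it was at 32.4 and 31.3 CPM in the controls and 21.5 and 20.6 CPM with the mimic, 1.52-fold lower (log2 fold change -0.60, SE 0.0584, edgeR adjusted p = 8.23e-07). The groups did not overlap, and no seed match was found in its 3′ UTR of 964 nt. In ACHN it had 16, 12 and 12 reads in the controls and 33, 43 and 33 with the inhibitor, without overlap in CPM (log2 fold change 0.96, SE 0.290, edgeR adjusted p = 0.0156). The ACHN call was lost in DESeq2 (adjusted p = 0.0644), without control replicate 2 (0.0574) and without inhibitor replicate 2 (0.0825). In 786-O LTBP1 had 34 and 26 reads, within counting error.

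MFAP2 had 25, 33 and 37 reads in the ACHN controls and 82, 65 and 77 with the inhibitor, which is 0.526 to 0.946 CPM against 1.14 to 1.34 CPM. The groups did not overlap, and the rise was 1.67-fold (log2 fold change 0.74, SE 0.204, edgeR adjusted p = 0.00931). Without control replicate 1 it did not pass (log2 fold change 0.51, adjusted p = 0.0870). In 786-O it had 10 reads in the control and 0 in the mimic library, at least 3.37-fold lower when 3 reads are taken as the most that 0 allows in that library. That bound takes the 10 control reads as exact, and the exact 95% interval, which counts their error too, starts at 2.27-fold.

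**Figure D4:**
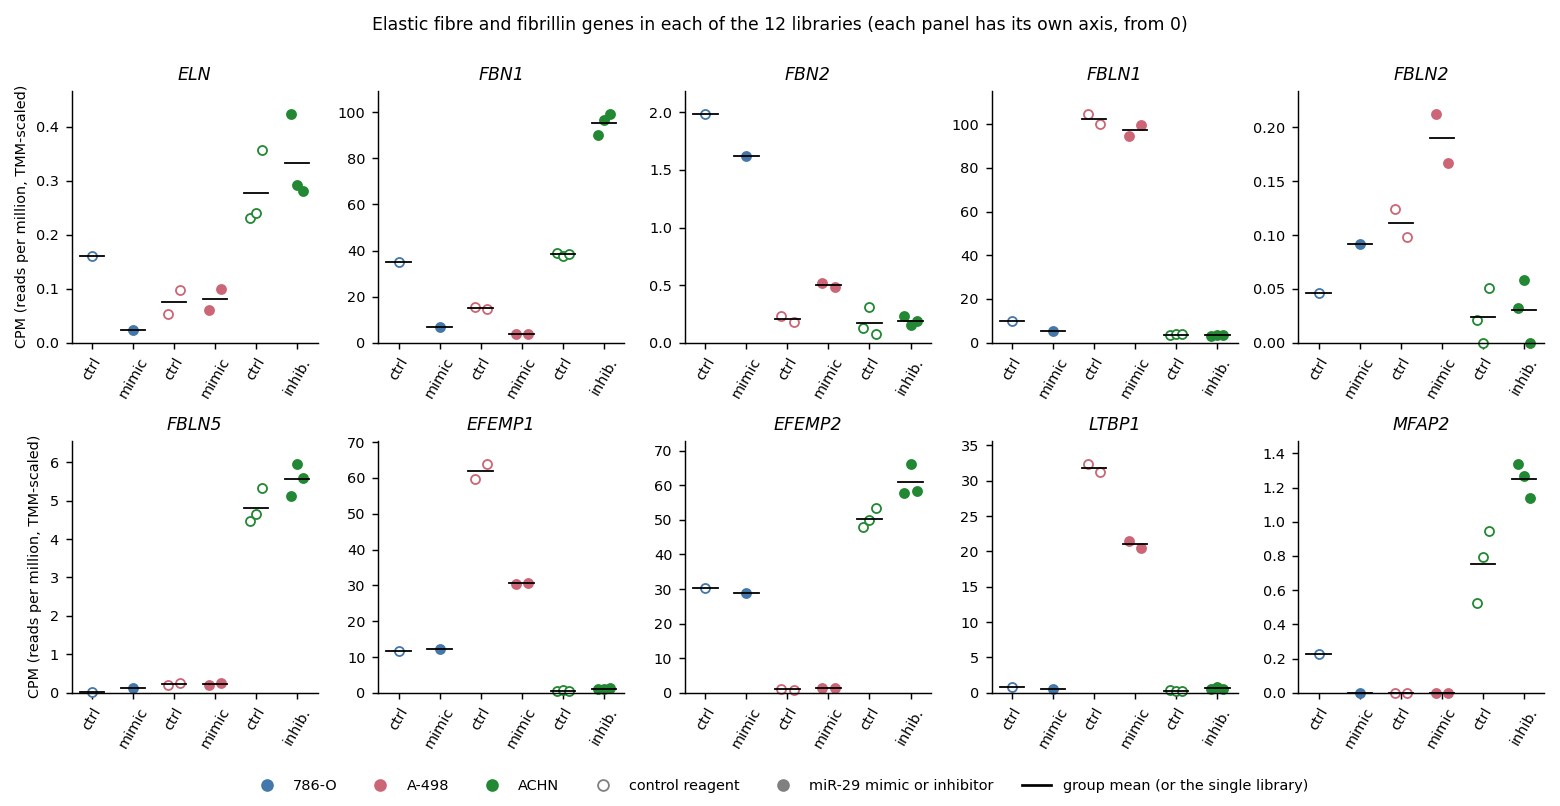
CPM of each gene in the 12 libraries, with each panel on its own axis from 0. Open points are control libraries, filled points are libraries with the miR-29 mimic (786-O, A-498) or inhibitor (ACHN), and bars are group means; FBN1 falls in both mimic lines and rises to between 90.3 and 99.5 CPM with the inhibitor.

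The mimic effects in 786-O and A-498 share no libraries, and their difference was tested as an interaction in edgeR, added after the data were seen. The spread in this fit comes from A-498 alone and 786-O is assumed to vary alike, so its p-values rest on that assumption. Under it the effect was more positive in 786-O for EFEMP1 (difference 1.11 on the log2 scale, SE 0.119, edgeR adjusted p = 5.02e-07). It was more negative in 786-O for FBLN1, FBN2 and EFEMP2, so 4 of the 8 genes tested passed, against 29.6% of all genes tested. FBN1 did not pass (difference -0.39, SE 0.145, edgeR adjusted p = 0.0518), and it did pass with library size alone (0.0155) or RLE factors (0.0320). None of the 4 passed once 0.2 was set as the biological coefficient of variation.

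The rest of the pathway was described from 4 lists of genes that are not members, whose counts stand beside the shares over all genes given above (27% lower and 25.5% higher in A-498, 14.4% and 17.3% in ACHN, 30.7% and 27.7% in 786-O). Among 11 other microfibril and elastic fibre components, 7 were tested in A-498 (2 lower, 3 higher) and 6 in ACHN (1 lower, 1 higher), while of 7 over the minimum in 786-O 3 were lower and 1 higher. HMCN1, or hemicentin-1, a relative of the fibulins, fell with the mimic in A-498 (log2 fold change -1.06, SE 0.0784, edgeR adjusted p = 4.65e-08) and did not pass in ACHN (-0.42, adjusted p = 0.441). LTBP2, a microfibril protein related to LTBP1, rose in both lines (0.47 in A-498 and 0.23 in ACHN, edgeR adjusted p = 0.000118 and 0.00214), whereas in 786-O it was lower in the mimic library (2317 to 1367 reads). Of the further latent TGF-β binding proteins, LTBP3 rose in A-498 (0.32, edgeR adjusted p = 0.00237) and was lower in the 786-O mimic library (3858 to 2979 reads). LTBP4 fell in ACHN (-0.29, edgeR adjusted p = 0.0132).

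Of 12 genes of crosslinking and assembly, 9 were tested in A-498 (5 lower, 1 higher) and 10 in ACHN (1 lower, 5 higher), and of 10 over the minimum in 786-O 7 were lower and 0 higher. The median log2 fold change of this list was -0.71 in A-498 and 0.22 in ACHN. The list of microfibril and elastic fibre components went the other way, with medians of 0.32 in A-498 and -0.22 in ACHN. LOXL2, a lysyl oxidase, fell from 662 and 643 CPM to 54.4 and 55.0 CPM in A-498 (log2 fold change -3.58, SE 0.0403, edgeR adjusted p = 5.75e-16) and rose in ACHN (0.99, adjusted p = 2.38e-11). LOX, the founding lysyl oxidase, fell in A-498 (-2.19, edgeR adjusted p = 3.47e-11) and rose in ACHN (0.81, adjusted p = 1.43e-09).

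ATP7A, the copper pump that loads lysyl oxidases, had log2 fold changes of -0.71 in A-498 (edgeR adjusted p = 2.12e-08) and 0.81 with the inhibitor in ACHN (adjusted p = 1.25e-06). ADAMTS10, a secreted protease that binds fibrillin-1, fell in A-498 (-0.74, edgeR adjusted p = 3.61e-07) and had too few reads in ACHN.

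All 11 genes of latent TGF-β and its activation were tested in both lines, of which 7 fell and 3 rose with the mimic, while 2 fell and 7 rose with the inhibitor. In 786-O 6 of the 11 were lower and 3 higher. The median log2 fold change of these 11 was -0.43 in A-498 and 0.19 in ACHN. TGFB2, a TGF-β ligand, fell in A-498 (log2 fold change -1.19, edgeR adjusted p = 2.83e-11) and rose in ACHN (0.50, adjusted p = 2.78e-07). ITGB1, the integrin β1 chain, fell in A-498 (-1.70, edgeR adjusted p = 8.05e-14) and rose in ACHN (0.18, adjusted p = 0.000622). ITGB3 rose in A-498 (0.89, edgeR adjusted p = 2.18e-10). THBS1, or thrombospondin-1, an activator of latent TGF-β, fell with both reagents (-0.62 and -0.24, edgeR adjusted p = 5.71e-09 and 7.54e-05), and in 786-O it was higher in the mimic library (88860 to 167421 reads).

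Of 10 elastin-degrading proteases, 9 were tested in A-498 (4 lower, 1 higher) and 7 in ACHN (0 lower, 2 higher), and of 8 over the minimum in 786-O 4 were lower and 2 higher. Their median log2 fold change was -0.24 in A-498 and 0.21 in ACHN. MMP14, a membrane-bound metalloprotease, fell in A-498 (log2 fold change -1.46, edgeR adjusted p = 3.97e-12) and rose in ACHN (0.64, adjusted p = 4.32e-08). The lysosomal protease CTSL moved the same ways by less (-0.39 and 0.15, edgeR adjusted p = 2.73e-07 and 0.0198). MMP7 fell in A-498 (-0.18, adjusted p = 0.00334), where CTSS rose (0.63, adjusted p = 8.14e-07). Both went the other way in 786-O beyond counting error, with 97 to 137 reads for MMP7 and 123 to 68 reads for CTSS.

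**Figure D5:**
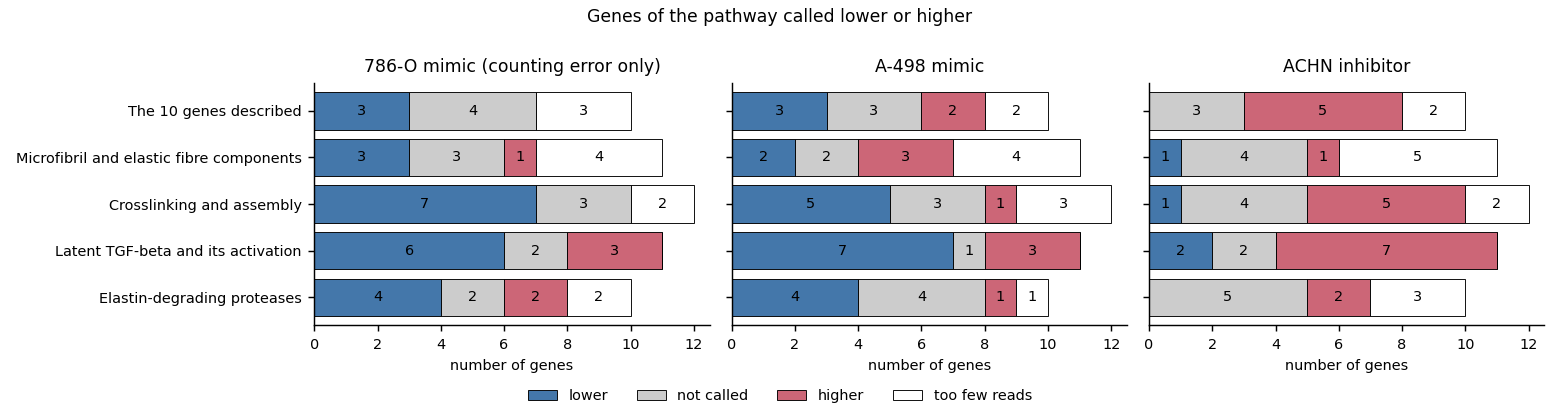
Number of genes lower, not called, higher or with too few reads in each line, for the 10 genes described and for 4 lists of the same pathway. In the list of crosslinking and assembly, 5 genes are lower with the mimic in A-498 and 5 are higher with the inhibitor in ACHN. Only LOX, LOXL2 and ATP7A are in both sets. The list has 1 gene higher in A-498 and 1 lower in ACHN, and the latter is lower in A-498 as well.

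Genes used as markers of fibroblasts, smooth muscle cells and pericytes also moved in the same libraries. The lines are grown without fibroblasts and smooth muscle cells, so these are levels in the cultured cancer cells. Of 8 fibroblast, smooth muscle and pericyte markers, 5 were tested in A-498 and 3 were lower (PDGFRB, DES and ACTA2), and 4 were tested in ACHN and 3 were higher (PDGFRB, DCN and TAGLN). Their summed level went from 38.3 to 38.4 CPM in the A-498 controls to 30.3 to 30.5 CPM with the mimic. In ACHN it went from 49.7 to 53.0 CPM to 56.9 to 64.4 CPM. The matrix gene LUM had 0 reads in both A-498 controls, while in 786-O it went from 785 to 276 reads. Of 8 renal epithelial and carcinoma markers, 6 rose with the mimic in A-498 (PAX8, KRT8, KRT18, EPCAM, CA9 and VIM) and CDH1 fell. With the inhibitor 5 of 7 tested in ACHN fell (PAX8, KRT8, KRT18, EPCAM and VIM). In 786-O, 5 of 7 renal markers over the minimum were higher and 1 was lower. Of 5 fibroblast, smooth muscle and pericyte markers over it, 2 were lower and 0 higher. Over all genes, 27% were lower and 25.5% higher in A-498, and 14.4% and 17.3% in ACHN. In 786-O these shares were 30.7% and 27.7%. The part of these marker changes in the values of the elastic fibre genes was not tested. A change in all cells of a line cannot be told apart from a change in some of them.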

How the data were processed

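Libraries were stranded and depleted of ribosomal RNA. The authors aligned paired reads to GRCh38 with HISAT2 and ran HTSeq-count in strict intersection mode over the genes of Ensembl v87; the raw counts were deposited without normalisation. Of the 58051 genes, 98.1% had a symbol in GENCODE v44. The authors deposited as well, per line, the DESeq2 output of their own comparison (log2 fold changes, standard errors and p-values), which was not used. The study set aside 2 further A-498 samples for possible mislabelling, and those were not analysed here. The summary lines of reads in no single gene were left out of library sizes.

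Counts were tested by edgeR 4.0.16 and its quasi-likelihood test (R 4.3.3, TMM factors, filterByExpr by group, two-sided, Benjamini-Hochberg over all genes tested, called at 0.05). Each reagent was tested against its control in each line by itself. The baseline comparison fitted the A-498 and ACHN controls together, and the interaction fitted 786-O and A-498 together. Log2 ratios in 786-O used a prior count of 2 where medians are given and exact binomial 95% intervals for genes with at least 10 reads in both libraries together. Printed CPM and RPKM were scaled by TMM factors over all 12 libraries, RPKM by the union of exons. Replicate libraries differed by more than counting gives (3.87 to 12.2 in chi-square per degree of freedom). The study calls the replicates biological. Intervals from counts cover counting error only, since no molecular identifiers were described.

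The test was checked on simulated data. It recovered the simulated folds, but with the spread of each gene drawn from its own estimate, more of the calls were false than the nominal share, most of all in A-498. With the spread drawn from the trend over genes, in a second run made after that, the share was near the nominal one. The fit itself uses that trend, so the second run cannot settle how many calls in the real data are false. Seed matches were searched on the GENCODE v44 annotation, a later release than Ensembl v87 on the same build.

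The alternatives were other scalings (library size, RLE), DESeq2 1.42.0, no filter, an adjusted p under 0.01, a fit over 10 libraries, a replicate block in ACHN and leaving out each library. The members, lists and tests were chosen with earlier results of these data known. All 10 members are named, and from each pathway list up to 4 called genes, those of largest absolute change among genes averaging 3 or more in log2 CPM.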

Additional observations from a re-analysis of the deposited data

Results flagged for a closer look

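For 4 genes the effects of the mimic in 786-O and A-498 passed a test of their difference (edgeR interaction, adjusted p under 0.05, added after the data were seen) under the assumption that 786-O varies as A-498 does, which 1 library per group cannot show. The effect in 786-O minus that in A-498 on the log2 scale was 1.11 for EFEMP1 (adjusted p = 5.02e-07). It was -0.72 for FBLN1 (adjusted p = 0.000252), -1.54 for FBN2 (adjusted p = 0.00990) and -0.58 for EFEMP2 (adjusted p = 0.0274). No difference passed when the biological coefficient of variation was fixed at 0.2 (adjusted p = 0.386, 0.750, 0.295 and 0.869). No group had the 4 samples needed to test for a single library far from the others.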

How the results depend on the processing

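Low counts limited some genes: FBN2 and FBLN2 in ACHN, and ELN and MFAP2 in A-498, had too few reads for a test. ELN, FBLN2 and FBLN5 were under the read minimum in 786-O. No called change of a member turned direction under any alternative run. The 2 members higher in A-498 became 0 in DESeq2 and 1 at an adjusted p under 0.01, and ranged from 1 to 2 when each library was left out in turn. The 3 members lower in A-498 and the 5 higher in ACHN stayed within 1.5 times under every alternative run. With library size alone, the 786-O minus A-498 differences over all genes turned from 2972 more negative and 3723 more positive to 3931 and 2796. When 0.2 was set as the biological coefficient of variation, 281 genes were called in place of 6695, with 0 members more negative and 0 more positive. A search for matches of 6 bases or longer gave 5 members in place of 3 (31.5% of all genes searched), and the coding sequence gave 4 (22.1%).

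In ACHN, the deviations of same-numbered libraries correlated at 0.407, -0.148 and -0.0139. The first of these was the highest of any pair, and so few libraries cannot settle whether the numbers pair the samples. With the replicate block 5 members were higher and 0 lower.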
